A study of Mus musculus with 97 samples.

Results

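The genes described are those for the proteins of the cytosolic ribosome in mouse brain, measured in regions captured from brain sections of mice that carry a human APOE gene and had received chemotherapy. They were chosen by symbol: genes named Rpl or Rps with a number, an optional letter and an optional final l, together with Rpsa, Rplp0, Rplp1 and Rplp2, and without the Rps6k kinases. The rule gave 82 of the 19962 genes in the table, of which 47 belong to the large subunit, 3 to its acidic stalk and 32 to the small subunit. The rule uses symbols only. All 82 genes exceeded the lowest value of 1 in at least 1 library and entered the tests.

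RNA was measured with the GeoMx whole transcriptome atlas, in which probes bind RNA in a tissue section of 8 µm, ultraviolet light releases the probe tags from a chosen region, and the tags are sequenced. Older knock-in mice that carry human APOE3 or APOE4 received 1 of 3 treatments into the peritoneum, 2 times a week over 2 weeks. The vehicle was a mix of DMSO and PBS, which every vehicle group shares. DD combined weekly doses of 3 mg/kg of doxorubicin with 10 mg/kg of docetaxel, and DC combined the same doxorubicin dose with 40 mg/kg of cyclophosphamide. Doxorubicin is a DNA-intercalating topoisomerase poison, docetaxel stabilises microtubules and cyclophosphamide alkylates DNA. The age is given only as older. Allele, treatment and region (cortex or hippocampus) define 12 groups; APOE3 DD cortex held 9 libraries and the other groups 8 each, giving 49 of cortex and 48 of hippocampus. The labels do not tie regions to animals, so libraries of a group may share an animal, and the p-values, which measure the spread between these libraries, are then too small. APOE3 and APOE4 libraries lay on separate plates, so genotype and plate cannot be told apart.

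A ribosome pairs a small subunit, which decodes the mRNA, with a large subunit, which forms the peptide bond. Most of the proteins are present in a single copy per ribosome, and their genes are highly transcribed. Most of their mRNAs begin with a tract of pyrimidines, the 5′ terminal oligopyrimidine or TOP motif, through which mTOR signalling controls their translation. In neurons these mRNAs are also carried into axons and dendrites.

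RefSeq's promoter table for GRCm38.p6 held 64 of the 82 genes, with 76 annotated starts. The letters CTTT or CCTT, which stand for a short pyrimidine tract on the gene's own strand and can overlap each other, lay whole within the 10 bases before and the 10 bases from the start in 19 of those starts (25%), against 13.0% of 32851 starts of all genes. The same letters on the other strand, AAAG or AAGG, lay in the same span of 10.5% of the members' starts and 13.1% of all starts. The windows below each span 30 bases around an annotated start, with matches in capitals, and are shown for the member with the highest level and for 6 of the members that differed between treatments in the hippocampus.
Rps26, chr10:128626492-128626521, minus strand: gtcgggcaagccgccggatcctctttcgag
Rps24, chr14:24490663-24490692, plus strand: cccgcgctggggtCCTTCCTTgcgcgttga
Rpl19, chr11:98026909-98026938, plus strand: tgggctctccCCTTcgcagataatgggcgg
Rps3, chr7:99483695-99483724, minus strand: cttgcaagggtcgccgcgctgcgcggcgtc
Rps4x, chrX:102189377-102189406, minus strand: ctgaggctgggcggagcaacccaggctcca
Rpl31, chr1:39367836-39367865, plus strand: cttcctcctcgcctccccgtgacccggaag
Rpl4, chr9:64173372-64173401, plus strand: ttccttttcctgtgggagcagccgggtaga
Rps24 and Rpl19 matched at these starts, and each has another annotated start without a match. The lower-case cttt of Rps26 runs 1 base past the searched span and the cctttt of Rpl4 begins before it, so neither was counted. A match is a run of letters near an annotated start, and how close that start is to the true one was not tested.

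Counts were low, and a group of libraries stood apart. Total counts per library ran from 21568 to 1850600 (median 44846), and the negative probe, a control with no target in the transcriptome, had values from 1.02 to 93.1 (median 1.84). The lowest value was 1 in 94 of 97 libraries, and a median of 53 of the 82 members stood at 1 in APOE3 libraries against 16 in APOE4 libraries. In 13 libraries the negative probe was 5 or more, all of them APOE4 and none of them vehicle: 2 of DD cortex, 4 of DC cortex, 1 of DD hippocampus and 6 of 8 of DC hippocampus. The values nearest that limit were 4.64 and 5.41. Markers of the labelled regions were weak. Slc17a7, which loads glutamate into the vesicles of excitatory neurons, had a median ratio to the negative probe of 1.85 (cortex) and 1.08 (hippocampus). Of 5 hippocampal markers, 0 had a median above the negative probe in hippocampus (range 0.815 to 0.940), and 0 of 5 oligodendrocyte markers did in either region. In these bulk regions, fewer cells of a type and less RNA per cell cannot be told apart.

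Ribosomal protein genes stood above the negative probe more often than genes in general, but most of them only slightly. Levels are given here as the count divided by the negative probe of the same library, and the median over libraries was above 1 for 39 of 82 members in cortex (47.6%, against 17.7% of all genes) and for 33 of 82 in hippocampus (40.2%, against 16.5%). Ratios above 1.5 were reached by 8 members in cortex and 9 in hippocampus, and ratios above 2 by 4 and 1. Probes differ in how well they bind, so an order of these ratios is an order of probe signals. By subunit, the median ratio was 0.960 for the large subunit, 1.06 for the small subunit and 0.982 for the stalk in cortex, and 0.922, 0.982 and 1.09 in hippocampus. The order of members was similar in both regions, with a Pearson r of 0.812 and a Spearman rho of 0.731 between the regional medians of 82 genes, which are not independent replicates and share the probes and the plates.

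**Figure D1:**
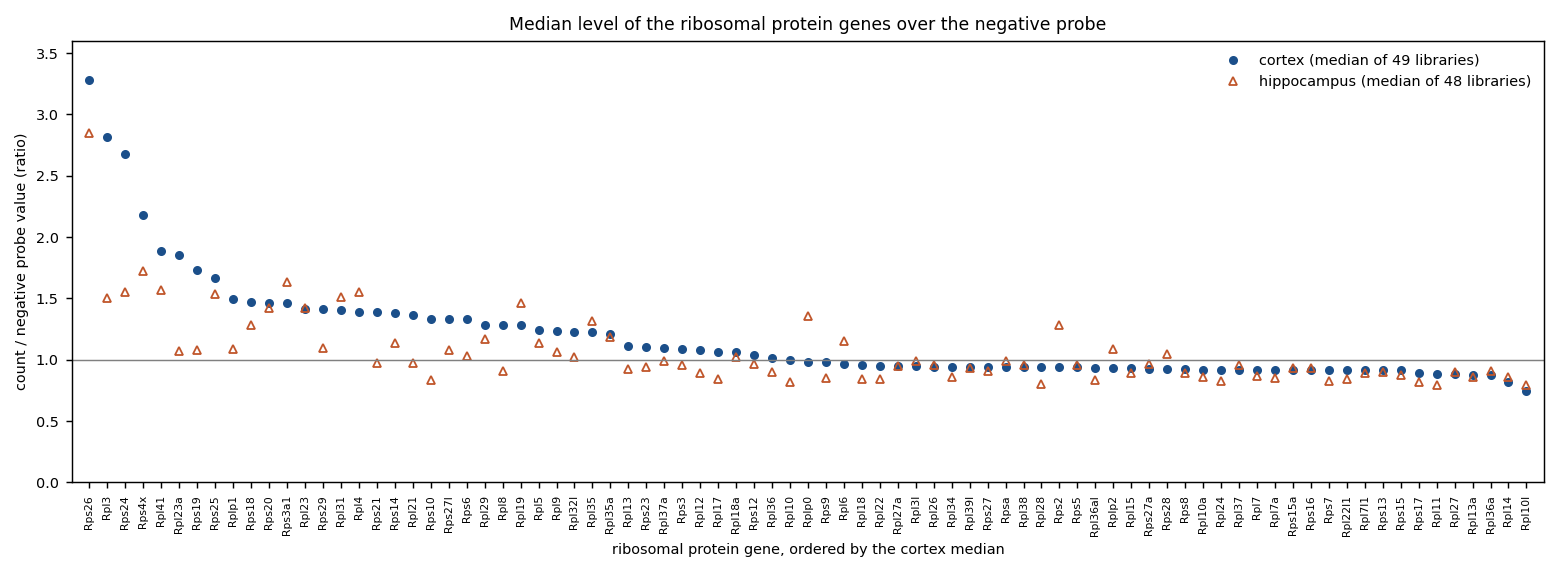
Median count over the negative probe (a ratio, y axis) for the ribosomal protein genes reported here, ordered by the cortex median; circles are cortex (49 libraries), triangles hippocampus (48 libraries), and the grey line marks 1. Rps26 is highest in both regions (3.28 and 2.85), and most members lie near 1.

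Rps26, a small-subunit protein at the mRNA exit channel, had the highest median in both regions, 3.28 in cortex and 2.85 in hippocampus. It exceeded the negative probe in 44 of 49 cortex and 42 of 48 hippocampus libraries, and was the highest member in 31 of the 97 libraries. Its group medians in cortex were 2.78 in APOE3 vehicle, 3.66 in APOE3 DD, 3.06 in APOE3 DC, 4.09 in APOE4 vehicle, 3.10 in APOE4 DD and 3.83 in APOE4 DC. In hippocampus they were 3.44, 2.34, 1.72, 2.84, 4.59 and 1.51 in the same order. The ranges within the groups overlapped, as in APOE3 vehicle cortex (0.876 to 6.64) and APOE4 vehicle cortex (0.617 to 5.99), and Rps26 passed edgeR's test over all genes in none of the 28 contrasts. DESeq2 passed it for DC against DD in the APOE4 hippocampus (log2 fold change -1.15, DESeq2 adjusted p = 0.032). On the 58 genes that its filterByExpr filter left, edgeR passed it in 3 contrasts between regions, with medians that differed in direction. The group median was higher in hippocampus than in cortex in APOE3 vehicle and APOE4 DD, and lower in APOE4 DC.

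The other members with high levels in cortex were Rpl3, which lies near the peptidyl transferase centre, at 2.81, Rps24 at 2.68, the X-linked Rps4x at 2.18, Rpl41, the smallest of the ribosomal proteins, at 1.89, and Rpl23a, at the exit of the nascent chain, at 1.85. In hippocampus Rps26 was followed by Rps4x at 1.72, Rps3a1 at 1.64, Rpl41 at 1.57, Rpl4 at 1.56 and Rps24 at 1.55. Rps6, the substrate of S6 kinase whose phosphorylation is read as mTOR activity, had a ratio of 1.34 in cortex and 1.03 in hippocampus. Of the stalk proteins that recruit elongation factors, Rplp0 stood at 0.982 and 1.36, Rplp1 at 1.49 and 1.09, and Rplp2 at 0.936 and 1.08. Rpsa, also known as the laminin receptor, stood at 0.944 and 0.988, Rpl13a, often used as a reference gene, at 0.876 and 0.860, and the ubiquitin fusion Rps27a at 0.923 and 0.964. The cortex medians of Rplp2, Rpsa, Rpl13a and Rps27a are the lowest count of 1 over the negative probe of 1 library, not graded levels. The ubiquitin-like fusion Fau, a ribosomal protein that the symbol rule leaves out, stood at 1.29 and 1.08.

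Of 8 listed paralogs of other ribosomal protein genes, some of them tissue-restricted, 6 lay below the negative probe in both regions. In cortex and hippocampus, Rpl3l, known from striated muscle, had ratios of 0.947 and 0.988, the testis paralogs Rpl39l 0.944 and 0.930 and Rpl10l 0.746 and 0.790, Rpl36al 0.936 and 0.833, Rpl22l1 0.913 and 0.843, and Rpl7l1 0.913 and 0.888. Each of these 6 cortex medians is the lowest count of 1 over the negative probe of 1 library. Differences among them are therefore no graded levels. Above it, Rps27l, a p53 target, stood at 1.34 and 1.08, and Rpl32l at 1.23 and 1.02. Rpl10l was the lowest member in both regions. Of the 97 libraries, only APOE4 vehicle hippocampus replicate 7 held a high Rpl10l value, with a count of 45 and a ratio of 22.5. The median of its group was 0.737. That library decides each Rpl10l result below.

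The ratios of single members differed between libraries with a low and a high negative probe. All libraries of 5 or more are APOE4 and treated, and their depth was not separated from allele, plate and treatment. In libraries with a negative probe under 5, 34 of 82 members had a median above it (41.5%, against 9.96% of all genes), and in those of 5 or more 43 of 82 did (52.4%, against 55.3%). In the 8 libraries where it was 8 or more, a limit chosen after the values were seen, 22 of 82 did (26.8%, against 53.9%). The median ratio of the members in those 8 libraries was 0.925, below the all-gene median of 1.01. Rps26 had a ratio of 3.19 in the libraries under 5, 1.56 in those of 5 or more and 1.12, from a count of 104, in the deepest library. Rps3, a small-subunit protein at the mRNA entry, went from 1.10 to 0.604 and 0.527, and Rps3a1 from 1.60 to 1.53 and 1.48. The order of members under 5 and at 8 or more had a Pearson r of 0.478 and a Spearman rho of 0.276 over 82 genes.

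The mean over the 82 members, divided by the negative probe, was 1.29 ± 0.140 (SD, n = 8) in APOE3 vehicle cortex, 1.42 ± 0.261 (n = 9) in APOE3 DD cortex and 1.34 ± 0.140 (n = 8) in APOE3 DC cortex. In APOE4 cortex it was 1.49 ± 0.185 in vehicle, 1.27 ± 0.183 in DD and 1.31 ± 0.236 in DC (n = 8 each). In hippocampus the APOE3 groups had 1.29 ± 0.124 in vehicle, 1.28 ± 0.144 in DD and 1.27 ± 0.186 in DC, and the APOE4 groups 1.43 ± 0.195 in vehicle, 1.32 ± 0.118 in DD and 1.08 ± 0.224 in DC. APOE4 DC hippocampus was the lowest group, and its libraries, from 0.901 to 1.47 with a median of 0.966, overlapped those of APOE4 vehicle hippocampus, from 1.27 to 1.88 with a median of 1.37. The means of the other 11 groups ran from 1.27 to 1.49, with SDs of 0.118 to 0.261, and were not tested against each other.

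Set against all genes of the same library, the members were above average in 11 of the 12 groups. The mean of the members over the mean of all genes was 1.22 ± 0.150 in APOE4 vehicle cortex and 1.20 ± 0.162 in APOE4 vehicle hippocampus, the highest groups, and 0.994 ± 0.125 in APOE4 DC hippocampus (SD, n = 8 each). In that last group the 2 libraries with a negative probe under 5 had 1.11 and 1.21 and the other 6 had 0.880 to 1.10, so that 5 of 8 libraries lay below 1. Over all 97 libraries, 77 of the 84 with a negative probe under 5 and all 5 between 5 and 8 lay above 1, whereas all 8 libraries of 8 or more, 3 of cortex and 5 of APOE4 DC hippocampus, lay below it at 0.880 to 0.953. The part of the negative probe in the level of APOE4 DC hippocampus was not tested; without its 6 libraries of 5 or more, the mean ratio to the negative probe was 1.40 rather than 1.08.

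**Figure D2:**
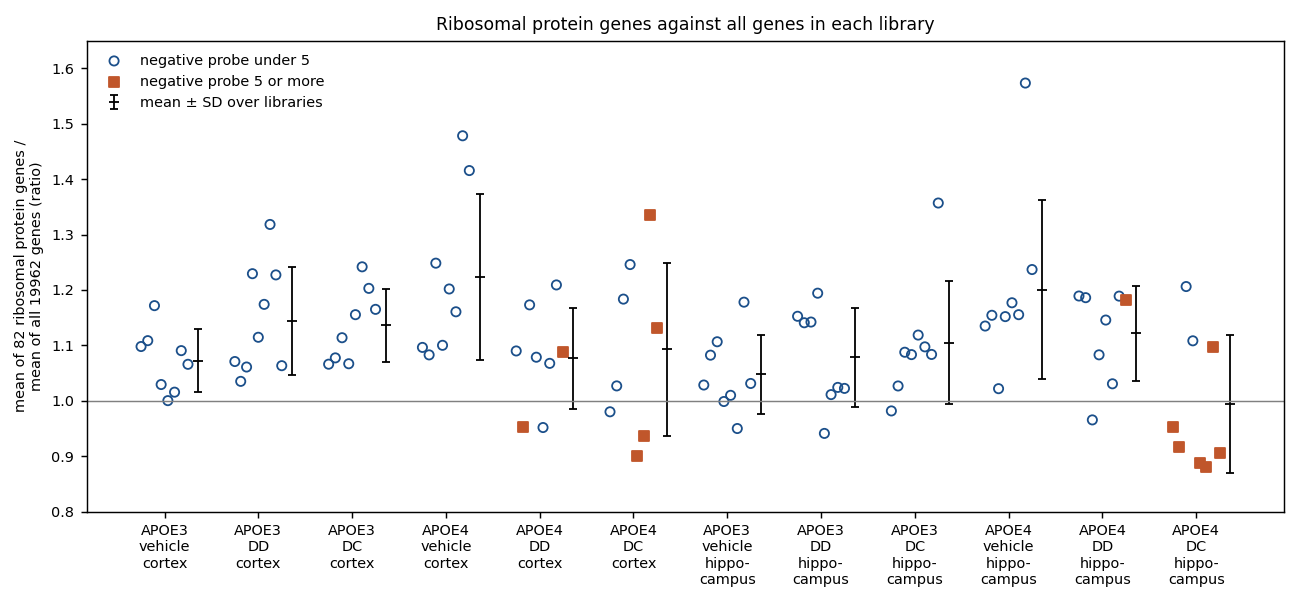
Mean of the 82 ribosomal protein genes over the mean of all 19962 genes (a ratio, y axis) in each library of the 12 groups; open circles have a negative probe under 5, filled squares 5 or more, and black bars are the mean ± SD over libraries. APOE4 DC hippocampus holds 6 filled squares and has the lowest mean, 0.994.

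**Figure D3:**
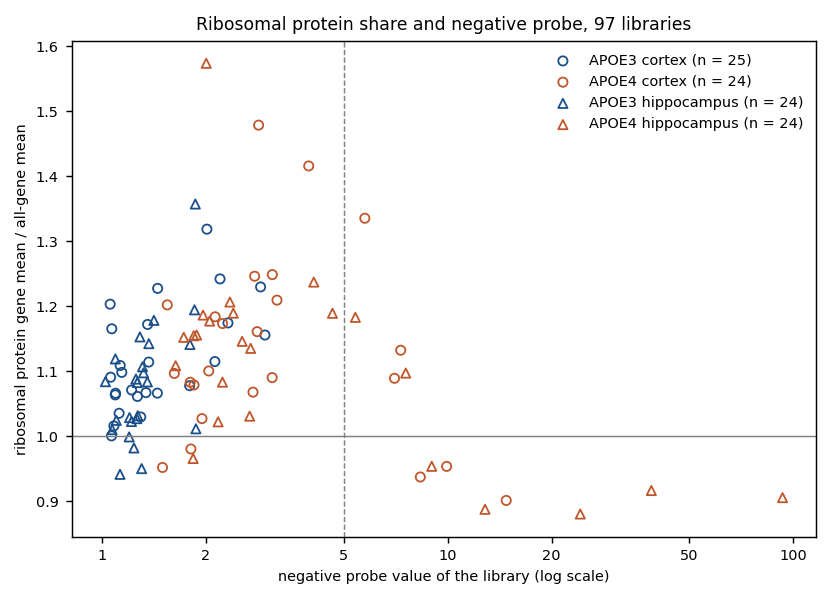
The same ratio (y axis) against the negative probe value of the library (log axis) for 97 libraries; colours give the APOE allele, circles are cortex and triangles hippocampus, and the dashed line marks 5. All 8 libraries with a negative probe of 8 or more lie below a ratio of 1.

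Differences between treatments were tested gene by gene over all 19962 genes with edgeR's quasi-likelihood test, with Benjamini-Hochberg adjustment and a threshold of 0.05. Libraries were the unit, so the p-values are too small wherever libraries share an animal. After DC, ribosomal protein genes were lower in the APOE4 hippocampus than after vehicle: 7 members fell and 0 rose, where 0.917% of all genes fell and 0.932% changed in either direction. Log2 fold changes were below 0 for 74 of 82 members, against 62.0% of all genes, with a median of -0.60 against -0.11 for all genes. An unadjusted p under 0.05 was reached by 40 members, 48.8% against 8.65% of all genes. Here and in the contrasts below, all genes are not matched to the members in level. In hippocampus 40.2% of members and 16.5% of all genes had a median above the negative probe. The part of level in these shares was not tested. By subunit, 41 of 47 large-subunit genes had values below 0 (4 passed, Rpl10l among them), 30 of 32 small-subunit genes (3 passed) and 3 of 3 stalk genes (0 passed). The libraries of 5 or more differ between these groups, 6 of 8 in DC against 0 of 8 in vehicle. Without them 0 of 82 members passed with the same edgeR test and 44 of 82 were below 0, with 2 DC libraries left. The 7 genes then had values of -2.04 for Rpl10l, -1.89 for Rpl31, -0.52 for Rpl4, -0.36 for Rpl19, -0.23 for Rps4x, 0.14 for Rps24 and 0.15 for Rps3 (edgeR adjusted p = 0.99 each), and the part of the negative probe was not tested. Scaling by the upper quartile kept the member median below 0 (-0.20) with an all-gene median of 0.31, left 1 member past the threshold, Rpl10l, and split the calls over all genes into 41 higher and 77 lower, against 3 and 183 with TMM. Library totals, subtraction of the negative probe and values of 1 set to 0 also left only Rpl10l, the last with a member median of -0.04 against 0.48 for all genes. DESeq2 passed 1 member, Rpl31, and gave Rps3 and Rpl10l no adjusted p, while limma on log2 ratios passed 0.

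Rps3, which also acts in DNA repair outside the ribosome, had ratios to the negative probe from 0.386 to 1.84 (median 0.608) after DC and from 0.499 to 3.73 (median 1.56) after vehicle. The groups overlapped, and the fitted log2 fold change was -1.40 (SE 0.26, edgeR adjusted p = 0.0040). Both DC libraries with a negative probe under 5 lay at the top, at 1.84 and 1.71. The counts behind these ratios were 3 to 49 after DC and 1 to 7 after vehicle.

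Rps4x, whose gene lies on the X chromosome, ranged from 0.445 to 2.56 (median 1.22) after DC and from 0.580 to 5.07 (median 2.60) after vehicle. It fell by 1.30 on the log2 scale (SE 0.31, edgeR adjusted p = 0.0090), and again the highest DC ratios, 2.45 and 2.56, came from the libraries under 5. Rps24 ranged from 0.624 to 2.99 (median 1.28) against 0.543 to 3.23 (median 2.32) and fell by 1.05 (SE 0.27, edgeR adjusted p = 0.027). Mutations of RPS24 are a known cause of Diamond-Blackfan anaemia in people.

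Among large-subunit genes, Rpl31 at the nascent chain exit ranged from 0.427 to 1.72 (median 0.872) after DC and from 0.461 to 3.48 (median 2.08) after vehicle, and it fell by 1.10 on the log2 scale (SE 0.25, edgeR adjusted p = 0.015). Rpl4, which lines the exit tunnel, ranged from 0.721 to 1.71 (median 1.16) against 0.976 to 3.00 (median 2.16) and fell by 1.08 (SE 0.25, edgeR adjusted p = 0.0064). Rpl19, which forms a bridge between the subunits, ranged from 0.624 to 2.13 (median 1.34) against 0.499 to 4.34 (median 2.26) and fell by 1.03 (SE 0.26, edgeR adjusted p = 0.018). In the DC libraries under 5, Rpl31 had ratios of 0.612 and 0.427, Rpl4 1.22 and 1.71, and Rpl19 1.22 and 2.13. The highest DC ratio of Rpl4 and of Rpl19 came from one of these libraries, and that of Rpl31 did not.

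**Figure D4:**
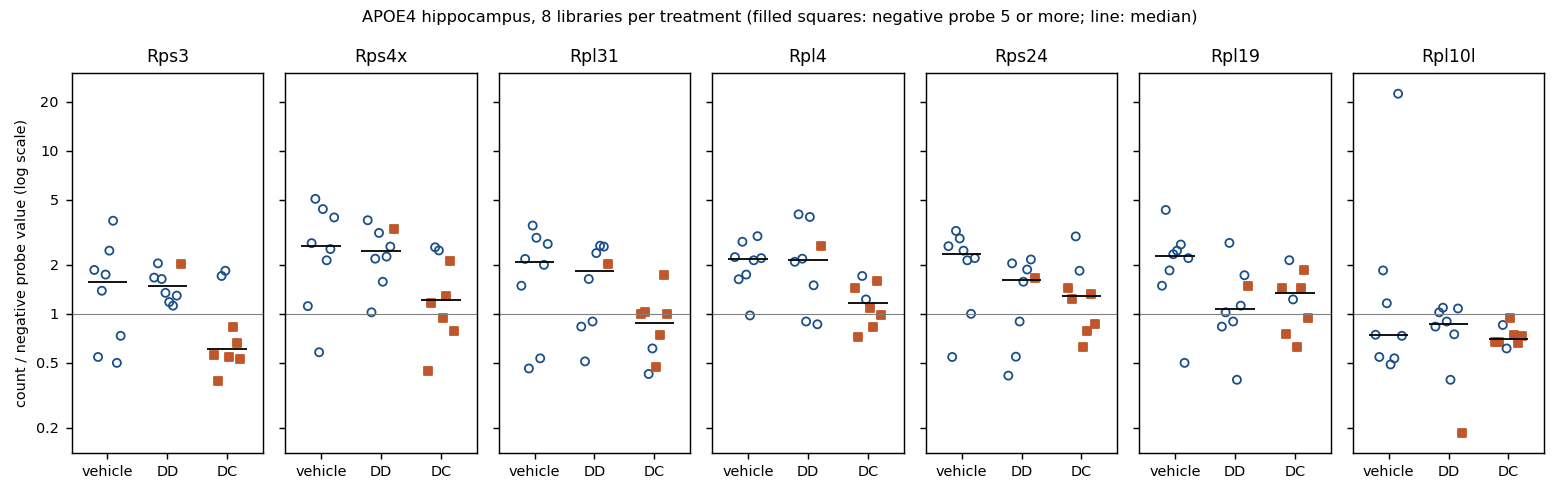
Count over the negative probe (log axis) of the 7 genes that passed between DC and vehicle in APOE4 hippocampus, in 8 libraries per treatment; filled squares have a negative probe of 5 or more and lines are medians. The groups overlap for each gene, and Rpl10l has 1 vehicle library at 22.5.

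Rpl10l was the seventh gene to pass, with ratios from 0.612 to 0.936 after DC and from 0.488 to 22.5 after vehicle (log2 fold change -2.13, SE 0.33, edgeR adjusted p = 2.0e-06). Its group medians, 0.700 and 0.737, were close, and without vehicle replicate 7 it no longer passed. Leaving out each library in turn left 4 to 9 members past the threshold, with 4 (Rpl4, Rpl31, Rps3 and Rpl10l) without DC replicate 8, the deepest library.

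Other genes of the translation machinery were counted in the same contrast. Of 78 mitochondrial ribosomal protein genes 57 were below 0 (median -0.21) and 1 fell, Mrps12 (log2 fold change -1.48, edgeR adjusted p = 0.00027). Of 40 ribosome biogenesis factors 32 were below 0 (median -0.24) and 1 fell, Rrs1, needed for large-subunit assembly (-1.29, edgeR adjusted p = 0.0017). Of 20 mTOR and TOP mRNA regulators 13 were below 0 (median -0.18) and 1 fell, the S6 kinase Rps6kb2 (-1.25, edgeR adjusted p = 0.010). Of 36 translation factors 18 were below 0 (median -0.01) and 0 passed. Fau had a value of -0.28 and did not pass. No marker of a brain cell type passed in this contrast, and 4 of 5 astrocyte markers (median -0.50), 4 of 5 excitatory neuron markers (-0.35) and 2 of 5 oligodendrocyte markers (0.14) were below 0.

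DC also differed from DD in the APOE4 hippocampus, where 5 members were lower after DC and 0 higher; 0.331% of all genes were lower and 0.351% differed in either direction. Log2 fold changes were below 0 for 70 of 82 members against 56.6% of all genes, with a median of -0.39 against -0.06. This contrast shares the DC libraries with the one above. Rpl23, a large-subunit protein that also binds Mdm2, had ratios of 0.546 to 2.45 (median 1.05) after DC and 1.34 to 3.75 (median 2.09) after DD, with 7 of 8 DC libraries below the lowest DD library and a log2 fold change of -1.15 (SE 0.22, edgeR adjusted p = 0.0016). Rps3 was 1.12 to 2.04 (median 1.49) after DD, with 6 of 8 DC libraries below that range and a log2 fold change of -1.39 (SE 0.23, edgeR adjusted p = 0.0020).

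Rps27l and Rpl4 also passed. Rps27l had a median of 0.870 after DC and 2.24 after DD, a log2 fold change of -1.16 (SE 0.21, edgeR adjusted p = 0.0042). Rpl4 had medians of 1.16 and 2.13 (-1.06, SE 0.22, edgeR adjusted p = 0.0042). Ranges overlapped for these 4 genes. Without the libraries of 5 or more 0 of 82 passed with the same edgeR test, and Rps3 had a value of 0.27. DD holds 1 such library, and the part of the negative probe was not tested. Leaving out DD replicate 8 left 2 members, Rps3 and Rpl23, and leaving out DC replicate 7 gave 7. With upper-quartile scaling 1 member, Rps3, passed, the member median was -0.10 against 0.22 for all genes, and the calls split into 36 higher and 22 lower, against 4 and 66. DESeq2 passed 5 members, 3 of them shared with edgeR, and gave Rps3 no adjusted p, while limma passed 0.

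After DD, 1 member passed as lower than vehicle in the APOE4 hippocampus, where 0.341% of all genes changed and 0.331% were lower. It was Rpl10l (log2 fold change -2.18, SE 0.46, edgeR adjusted p = 0.0036), which did not pass without vehicle replicate 7. Its median ratio was higher after DD, 0.865, than after vehicle, 0.737. Values were below 0 for 55 of 82 members against 55.9% of all genes, with a median of -0.15 against -0.06. The genes that fell after DC had DD values of -0.02 for Rps3, -0.02 for Rpl4, -0.17 for Rpl31, -0.23 for Rps4x, -0.58 for Rps24 and -0.78 for Rpl19, none of which passed with edgeR (adjusted p = 0.99 each).

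In the APOE4 cortex, most members had lower values after both treatments, and none passed. With values of 1 set to 0 the member medians were 0.03 after DC and -0.06 after DD, against 0.27 and 0.16 for all genes. After DC 0.0802% of all genes passed; 68 of 82 members were below 0 against 65.3% of all genes, with a median of -0.37 against -0.14, and 19 members (23.2%, against 6.91%) had an unadjusted p under 0.05. The smallest p belonged to Rps21, a small-subunit protein, with ratios of 0.474 to 2.76 (median 1.13) after DC and 1.26 to 3.52 (median 2.04) after vehicle (-1.20, SE 0.29, edgeR adjusted p = 0.063). Rps29, which binds zinc, had medians of 1.16 and 2.26 (-1.15, edgeR adjusted p = 0.13), and Rpl32l of 1.14 and 2.18 (-1.12, edgeR adjusted p = 0.16). Leaving out single DC libraries brought 1 of these genes past the threshold in 5 of 8 cases.

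After DD, 0.0651% of all genes passed in the APOE4 cortex; 67 of 82 members were below 0 against 60.3%, with a median of -0.32 against -0.10, and 13 members had an unadjusted p under 0.05. Rpl38, whose loss in mice alters the axial skeleton, had the smallest p, with medians of 1.01 after DD and 1.69 after vehicle (-1.15, edgeR adjusted p = 0.41). DESeq2 and limma also passed 0 members in both cortex contrasts. The vehicle group is shared by both, and 2 DD and 4 DC libraries had a negative probe of 5 or more.

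In APOE3 mice, 0 members passed in any of the 4 contrasts with vehicle, with edgeR, DESeq2 or limma. In cortex 0.0301% of all genes passed after DD and 0.0301% after DC, and the medians over members were 0.29 and 0.15 against 0.20 and 0.20 for all genes, with 4 members of 82 at an unadjusted p under 0.05 in each; upper-quartile scaling turned the member medians to -0.17 and -0.48. With values of 1 set to 0, 5 members rose after DD and 3 after DC in cortex, where 2211 and 1195 of all genes passed edgeR's test. In hippocampus 0% passed after DD and 0.00501% after DC, the medians were 0.03 and 0.02 against -0.01 and -0.08, and 1 and 0 members had an unadjusted p under 0.05. The 6 ribosomal genes other than Rpl10l that fell in APOE4 DC hippocampus had APOE3 values from -0.40 (Rpl31) to 0.64 (Rpl19), with SEs of 0.42 to 0.48.

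Whether the response to treatment differed between the APOE alleles was tested as an interaction, and 0 of 19962 genes passed in any of the 4 tests. For DC in hippocampus 12 members had an unadjusted p under 0.05 (14.6%, against 1.52% of all genes). The smallest belonged to Rpl19 (-1.67, SE 0.53), Rpl41 (-1.56, SE 0.48) and Rps24 (-1.39, SE 0.50), each with an edgeR adjusted p of 0.99997. The counts at an unadjusted p under 0.05 were 2 for DD in hippocampus, 16 for DD in cortex and 15 for DC in cortex. DESeq2 and limma passed 0 members in each of them. A call in APOE4 and none in APOE3 is therefore not shown to be a difference between the alleles.

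**Figure D5:**
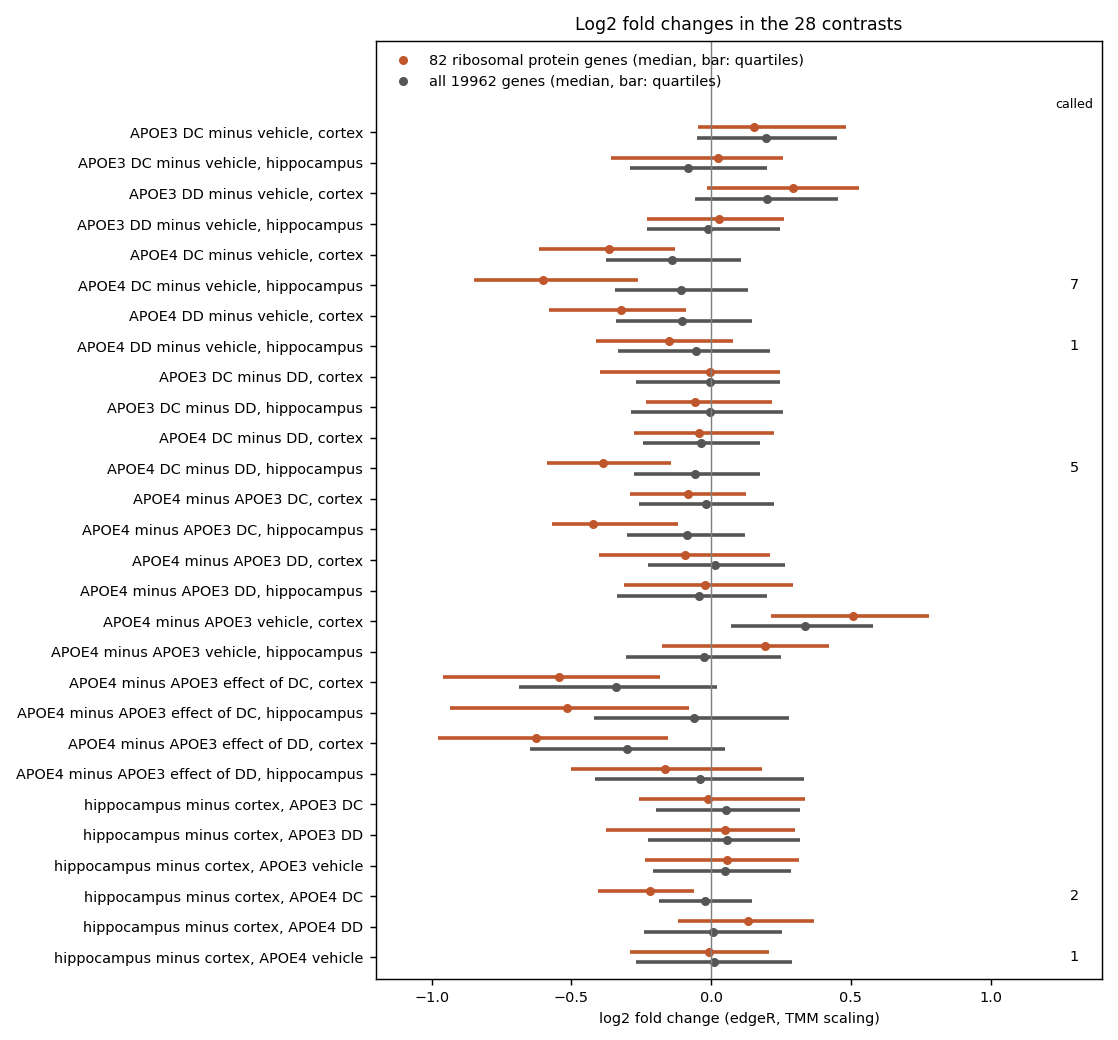
Log2 fold changes (edgeR, x axis) in the 28 contrasts, as the median (point) and quartiles (bar) of the 82 ribosomal protein genes and of all 19962 genes; numbers at the right count the members past the threshold. For DC against vehicle in APOE4 hippocampus the member median is -0.60 and the all-gene median -0.11.

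Between the APOE alleles, 0 members passed in the 6 groups of treatment and region, and each comparison is also one between plates, with p-values too small where libraries share an animal. In vehicle cortex 72 of 82 members had higher values in APOE4, with a median of 0.51 against 0.33 for all genes, of which 0.0301% passed, but with upper-quartile scaling 59 of 82 were lower and the medians were -0.23 against -0.40. With TMM 12 members had an unadjusted p under 0.05. Rpl32l (1.39, SE 0.43), Rps21 (1.44, SE 0.42) and Rps29 (1.23, SE 0.41) had the smallest p, each with an edgeR adjusted p of 0.90. In this contrast a median of 60.5 members (APOE3) and 21 members (APOE4) stood at the lowest value of 1. With values of 1 set to 0, 23 members passed in vehicle cortex, 12 in vehicle hippocampus, 23 in DC hippocampus and 3 in DD hippocampus, all higher in APOE4, where 6602, 1980, 9978 and 549 of all genes passed. In DC hippocampus 71 of 82 had lower values in APOE4 against 61.1% of all genes, with a median of -0.42 against -0.09, which turned to 1.13 with values of 1 set to 0; 0.02% of all genes passed and 12 members had an unadjusted p under 0.05, led by Rpl3 (-1.10), Rplp2 (-1.13) and Rps24 (-1.01), each with an edgeR adjusted p of 0.998.

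In the other genotype contrasts the medians of members and of all genes were 0.19 against -0.03 in vehicle hippocampus (0.16% of all genes passed; the member median was -0.057 with upper-quartile scaling), -0.09 against 0.01 in DD cortex (0.0601%), -0.08 against -0.02 in DC cortex (0.0351%) and -0.02 against -0.04 in DD hippocampus (0%). Counts of members at an unadjusted edgeR p under 0.05 were 1, 4, 4 and 1, and 0 members passed with DESeq2 or limma in all 6 genotype contrasts.

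Between regions, few members differed, by a test that takes cortex and hippocampus libraries as separate although they may come from the same animals. In APOE4 DC mice 2 members were lower in hippocampus than in cortex, where 0.476% of all genes were lower and 0.521% differed in either direction. Rpl3 had ratios of 0.468 to 1.84 (median 1.11) in hippocampus and 1.23 to 3.76 (median 2.42) in cortex (log2 fold change -1.11, SE 0.28, edgeR adjusted p = 0.027). Rps19, the gene most often mutated in Diamond-Blackfan anaemia, had 0.390 to 2.56 (median 1.09) and 0.360 to 3.13 (median 2.28), a log2 fold change of -0.96 (SE 0.22, edgeR adjusted p = 0.0044). Neither passed without the libraries of 5 or more, which are 6 of 8 in hippocampus and 4 of 8 in cortex, and without DC cortex replicate 7 neither passed either. Rpl3 was also lost without DC cortex replicate 3 or 4, or DC hippocampus replicate 1, 5, 6 or 8. Rps19 was also lost without DC hippocampus replicate 2. In APOE3 mice Rpl3 was lower in hippocampus as well, by -0.73 in vehicle, -0.86 in DD and -0.69 in DC, without passing.

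In APOE4 vehicle mice 1 member was higher in hippocampus (0.386% of all genes were higher and 0.461% differed), again Rpl10l (2.28, SE 0.42, edgeR adjusted p = 8.5e-05), and it did not pass without vehicle hippocampus replicate 7. In the other 4 groups 0 members passed with edgeR, DESeq2 or limma. Of all genes 0.015% passed there in APOE3 vehicle, 0.0601% in APOE3 DD, 0.0301% in APOE3 DC and 0.105% in APOE4 DD, and 0, 6, 1 and 2 members had an unadjusted p under 0.05. Between DC and DD, the remaining contrasts, APOE3 cortex (0.0301% of all genes), APOE3 hippocampus (0.00501%) and APOE4 cortex (0.13%), also had 0 members past the threshold with edgeR, DESeq2 or limma, and 5, 0 and 4 at an unadjusted p under 0.05.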

How the data were processed

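The deposited values are expected counts per gene, made by the authors from GeoMx tags and not scaled to depth; 4 rows are not whole numbers. The submitters' processing notes name mm10, and the counting software is not given in the sources used here. Counts were rounded to whole numbers. edgeR 4.0.16 in R 4.3.3 was fitted with TMM scaling to the 6 groups of each region, and to all 12 groups for contrasts between regions, using genes above 1 in at least 1 library. The quasi-likelihood test was adjusted by Benjamini-Hochberg over 19962 genes (threshold 0.05) in 28 contrasts. SEs derive from the F statistic alone, and for some genes they are smaller than the unadjusted p-values of the test imply. The labels' batch field is the same for all libraries, but their titles name 2 plates, 1 per allele, and no 2 libraries were identical (0 pairs).

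Named are members past the threshold, the 6 highest per region, listed paralogs and reference members, and otherwise the smallest p-values; a few genes are not reported here and stay in the counts. The symbol rule uses no values, but the members and lists were chosen with earlier results of these data known. Levels are descriptions without tests. Alternatives were other scalings (upper quartile, library totals, the negative probe), DESeq2 1.42.0, limma 3.58.1 on log2 ratios to the negative probe, 2 stricter filters, values of 1 set to 0, the negative probe subtracted, libraries left out, and neighbouring wells of a group summed or used as a random block (limma on log2 CPM). The model was also run on simulated counts. These held no probe background that differed between libraries, so that run does not cover the part of the negative probe. Precision is limited by the low counts per gene and library.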

Additional observations from a re-analysis of the deposited data

Results flagged for a closer look

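In 52 groups of libraries examined for a value far from the others of its group, 7 values stood apart. About 1 in 20 such groups is picked by chance. Some of the 7 values share a library, so they are not independent. In APOE4 vehicle hippocampus, replicate 7 had a mean ratio of the 82 ribosomal protein genes to the negative probe of 1.881 and a mean over that of all genes of 1.574, far above the other 7 libraries. It is also the library in which Rpl10l reached 22.46 times the negative probe; without Rpl10l its mean ratio was 1.63 and the group's was 1.41 ± 0.117 (SD, n = 8). In APOE3 DC hippocampus, replicate 8 had a mean ratio of 1.689 and a mean over all genes of 1.357, and it is the deepest library of its group, with a total count of 46285. In APOE4 DC hippocampus, Rpl23 at 2.448 and Rpl31 at 1.718 times the negative probe stood apart from the rest of their group.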

How the results depend on the processing

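Scaling to the negative probe and a filter of above 1 in at least 8 libraries kept every count of members past the threshold within 1.5 times, in 28 of 28 contrasts. For DC against vehicle in APOE4 hippocampus (7 members), upper-quartile scaling, library totals, DESeq2, values of 1 set to 0 and subtraction of the negative probe each left 1, while limma on the log2 ratio, leaving out libraries with a negative probe of 5 or more, and the random block of wells left 0. For DC against DD there (5), upper-quartile scaling left 1, and limma, values of 1 set to 0, subtraction, leaving out those libraries and the random block left 0. For DD against vehicle there (1), DESeq2, limma, values of 1 set to 0 and the random block left 0. For hippocampus against cortex in APOE4 DC (2), upper-quartile scaling, totals, DESeq2 and summed wells left 1, subtraction passed 1 other gene (Rps27l), and limma, values of 1 set to 0, leaving out those libraries and the random block left 0; in APOE4 vehicle (1), DESeq2, limma, values of 1 set to 0 and the random block left 0 and subtraction gave 2. The filterByExpr filter left 57 genes in cortex, 38 in hippocampus and 58 in the joint fit, with 0, 0 and 1 members (Rps26); that member passed (1) in APOE3 vehicle, APOE4 DC and APOE4 DD and not (0) in APOE4 vehicle. Values of 1 set to 0 gave 3 and 5 higher members after DC and DD in APOE3 cortex, and between alleles 23 in vehicle cortex, 12 in vehicle hippocampus, 23 in DC hippocampus and 3 in DD hippocampus, where 6602, 1980, 9978 and 549 genes passed. Leaving out each library gave 4 to 9 members for DC against vehicle in APOE4 hippocampus, 2 to 7 for DC against DD, 0 to 1 for DD against vehicle, 0 to 1 for DC against vehicle in APOE4 cortex, 0 to 4 and 0 to 1 for the regions in APOE4 DC and vehicle, and 0 to 0 in the others; it was not run for the regions in the other 4 groups. Genes to which DESeq2 gave no adjusted p counted as not passed. Among the edgeR calls in APOE4 hippocampus, these were Rps3 and Rpl10l for DC against vehicle and Rps3 for DC against DD. Between regions in APOE4 vehicle it was Rpl10l. For DC against vehicle in APOE4 hippocampus, summed wells kept 6 of the 7 genes, all but Rps24. The 49 runs of wells cover both regions and both alleles, and that fit used only the runs of hippocampus. The random block was fitted with limma on log2 CPM, so the scale and the test changed with it, and a lost call is not shown to come from the block; it had consensus correlations of 0.041 in cortex, -0.0095 in hippocampus and 0.0057 jointly. No paired analysis was possible because the labels do not tie regions to animals. The replicate numbers used here were given in the order of wells within each group, as the labels hold none.

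Upper-quartile scaling moved the median over all genes by -0.73 to 0.86 (over 0.1 in 21 of 28 contrasts), and its member medians were -0.48 and -0.17 for DC and DD in APOE3 cortex, -0.20 for DC and -0.10 for DC against DD in APOE4 hippocampus, and -0.23 and -0.057 between alleles in vehicle cortex and hippocampus. Scaling to the negative probe gave -0.017 for DC in APOE3 cortex and 0.20 between alleles in vehicle cortex, and totals gave -0.016, 0.077 (DD in APOE3 cortex), -0.36 (DC in APOE4 hippocampus) and 0.18 (alleles, vehicle cortex). Values of 1 set to 0 gave 0.80 and 1.13 for DC and DD in APOE3 cortex, 0.25 and 0.47 in APOE3 hippocampus, 0.034 and -0.057 in APOE4 cortex, -0.037 and 0.048 in APOE4 hippocampus and -0.032 for DC against DD there; between alleles it gave 1.58, 0.41 and 0.76 in vehicle, DD and DC cortex and 1.21, 0.88 and 1.13 in hippocampus. Without libraries of 5 or more the medians were -0.10 for DC in APOE4 hippocampus, 0.10 for DC against DD and 0.055 between alleles in DC hippocampus, and single genes turned: Rps3 0.15 and Rps24 0.14 against vehicle, and Rps3 0.27 against DD. Mean ratios with values of 1 set to 0 were 0.669, 1.08 and 0.952 in APOE3 vehicle, DD and DC cortex and 0.764, 0.859 and 0.758 in hippocampus. As the median over members they were 1.01, 1.15 and 0.986 in APOE3 cortex, 1.28 in APOE4 vehicle cortex, 0.890, 1.01 and 0.925 in APOE3 hippocampus, and 1.23 and 1.18 in APOE4 vehicle and DD hippocampus. Against all genes they were 1.07, 1.14 and 1.14 in APOE3 cortex, 1.22 and 1.08 in APOE4 vehicle and DD cortex, 1.05 and 1.08 in APOE3 vehicle and DD hippocampus, and 1.20 and 1.12 in APOE4 vehicle and DD hippocampus. Without libraries of 5 or more APOE4 DC hippocampus had 1.40; leaving out Rpl10l, chosen after seeing the data, moved no group by more than 1 SD. The causes were not tested.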
